A study of Mus musculus with 24 samples.

Results

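The miR-99/100 and miR-125 families were represented by 5 of the 566 mouse miRNA probes in the data set: mmu-miR-99a, mmu-miR-99b, mmu-miR-100, mmu-miR-125a-5p and mmu-miR-125b-5p, written below without the species prefix. They were picked by family name, with earlier results of these data known. All 5 were found in the table, and each was measured in the same 24 samples. The samples trace JygMC(A)-GFP/Luc cells, a mouse mammary carcinoma line carrying fluorescent and luciferase reporters, from culture through primary tumors grown in the mammary fat pad of BalbC nude mice to lung metastases. Laser capture provided 5 carcinoma areas and 7 EMT-like areas of spindle-shaped cells from primary tumors (together PT, n = 12), 4 lung metastases, 2 samples of normal mammary gland (NMG) and 2 of normal lung parenchyma. The cell line was also measured as 2 monolayer cultures and 2 cultures of 3D spheres on low-adherence plates. All tissue came from BalbC nude mice, given in the study's methods as females aged 6 to 9 weeks. Their age when tissue was taken is not given there. These mice lack a thymus but keep their own vessels, stroma and other blood cells, so captured areas can hold host RNA. All tumor samples and cultures derive from 1 tagged line. Carcinoma and EMT-like areas shared 4 animal labels, every metastasis shared its label with a primary area, and both NMG samples shared their animals with the normal lung samples. One of these labels, on a sample each of carcinoma, EMT-like area and metastasis, names 3 animals, and it is counted here as 1 animal.

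A miRNA guides the silencing machinery to transcripts mainly through its seed, bases 2 to 8 of the mature strand, so miRNAs that share a seed are expected to share many targets. The miR-99/100 family is known for repressing Mtor and Igf1r, and the miR-125 family, the mammalian relatives of the worm lin-4, for repressing Erbb2, Erbb3 and Lin28. In mammals the families are arranged in clusters, each with a miR-99/100 gene, a let-7 gene and a miR-125 gene, and paralogous clusters can be transcribed separately. In the RefSeq annotation of the mouse genome (GRCm38.p6) there are 3 such clusters, all on the + strand. Mir99b, Mirlet7e and Mir125a lie within 0.7 kb at chr17:17830188-17830879. Mir99a, Mirlet7c-1 and Mir125b-2 span 47.4 kb at chr16:77598936-77646343. Mir100, Mirlet7a-2 and Mir125b-1 span 50.6 kb at chr9:41531425-41582002. Mature miR-125b-5p has the same sequence from chromosomes 9 and 16, so its probe counts both loci together, whereas miR-99b and miR-125a-5p each come from chromosome 17 alone.

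The mature sequences of the 5 miRNAs, from RefSeq (GRCm38.p6), are shown because the seeds define the families and the remaining bases decide how well probes can tell the members apart. Capitals mark the seed.
miR-99a: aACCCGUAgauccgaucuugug
miR-100: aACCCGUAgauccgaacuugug
miR-99b: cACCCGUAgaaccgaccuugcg
miR-125b-5p: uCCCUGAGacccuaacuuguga
miR-125a-5p: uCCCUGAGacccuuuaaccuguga
Counted from base 1 at the 5′ end, miR-99a and miR-100 differ only by U16A, whereas miR-99a and miR-99b differ by A1C, U11A, U16C and U21C. The members of the miR-125 family share their first 13 bases, and miR-125a-5p is 24 bases long against 22 for miR-125b-5p. With a single base between miR-99a and miR-100, part of the signal of either probe could come from the other miRNA, and this was not tested.

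Levels are given as normalized values, barcode counts after background subtraction, made comparable between lanes with TMM factors (a trimmed mean of log ratios against a reference lane). The sum of the mouse miRNA values ranged from 26420 to 46507 in the cultures, from 62583 to 184501 in tumor samples, from 525697 to 560247 in NMG and from 590022 to 2335745 in normal lung, so scaling weighs on every comparison with normal tissue or with cultures. The detection limit of a lane (mean + 2 SD of its negative controls) lay between 4 and 21.4 counts. It was compared with the counts before scaling, not with the normalized values. Apart from miR-100 in 3 cultures and 1 metastasis, every member was above it in every sample. Epithelial and endothelial miRNAs broadly followed the labels. All 7 epithelial miRNAs were detected in every NMG sample, against 5 in every carcinoma area, 2 in every EMT-like area and none in the spheres. Both strands of miR-126, an endothelial miRNA, were at 0 in the 4 cultures. The mesenchymal miR-199a-3p, miR-199a-5p and miR-214 summed to 882 to 1885 in carcinoma and 1093 to 2844 in EMT-like areas, with overlap. They were under the limit in the cultures. The 4 striated muscle miRNAs summed to 44.5 and 1027 in the NMG samples. Nothing in the sources used here shows how well each probe captures its target, so levels are compared between samples for 1 probe at a time, and a ratio of 2 probes is read only for how it differs between samples.

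miR-99a, encoded on chromosome 16, was highest in normal tissue. Its normalized value was 3041 and 2448 in NMG and 1961 and 1964 in normal lung. In the carcinoma areas it was 1095, 591, 837, 563 and 898, and in the EMT-like areas it ranged from 356 to 590 with a median of 495. The 4 metastases had 676, 456, 376 and 440, the monolayers 1252 and 224, and the spheres 521 and 568. Both normal tissues lay above every tumor and culture sample without overlap, and NMG lay above normal lung, whereas the ranges of the tumor and culture groups overlapped from one to the next in the order of means. The monolayers differed more from each other than any other pair of replicates of this miRNA.

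miR-100, encoded on chromosome 9, had the same leading groups as miR-99a. Its value was 339 and 328 in NMG and 312 and 260 in normal lung. Carcinoma areas had 135, 102, 178, 106 and 140, EMT-like areas from 41.1 to 172 with a median of 109, and metastases 64.5, 28.6, 32.1 and 80.1. In the cultures it was 60.6 and 0 in the monolayers and 22.6 and 12.4 in the spheres, and only the first of these was above the detection limit. NMG and normal lung again lay above all other samples, and from carcinoma areas down to the cultures each group overlapped the next.

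miR-125b-5p, from chromosomes 9 and 16, was 9314 and 9423 in NMG and 11917 and 8200 in normal lung. It was 5007, 4924, 5840, 5613 and 10055 in carcinoma areas and ranged from 3432 to 9923 in EMT-like areas, with a median of 5047. The metastases had 2341, 2492, 1561 and 5816, the monolayers 3423 and 1851, and the spheres 5350 and 6828. One carcinoma area and 1 EMT-like area reached the normal tissue values while the others stayed below them, and 3 of 4 metastases lay under every primary area.

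The chromosome 17 miRNAs followed another order, with the lowest group mean in NMG. miR-99b had normalized values of 213 and 247 in NMG and of 864 and 572 in normal lung. It was 396, 345, 476, 322 and 380 in carcinoma areas, 252 to 511 (median 383) in EMT-like areas and 361, 298, 366 and 352 in metastases. The monolayers had 1089 and 440 and the spheres 293 and 409. NMG lay below every other sample, normal lung lay above all tumor samples and spheres, and the tumor groups overlapped one another.

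miR-125a-5p was 1835 and 1282 in NMG and 2989 and 1550 in normal lung. Carcinoma areas had 3385, 2272, 3735, 3392 and 3174, EMT-like areas from 2200 to 3972 with a median of 3640, and metastases 2310, 1672, 1928 and 2618. The monolayers had 6263 and 3107 and the spheres 1899 and 2268. All primary areas lay above NMG, and the normal lung samples lay on either side of the lower primary areas, metastases and spheres.

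**Figure D1:**
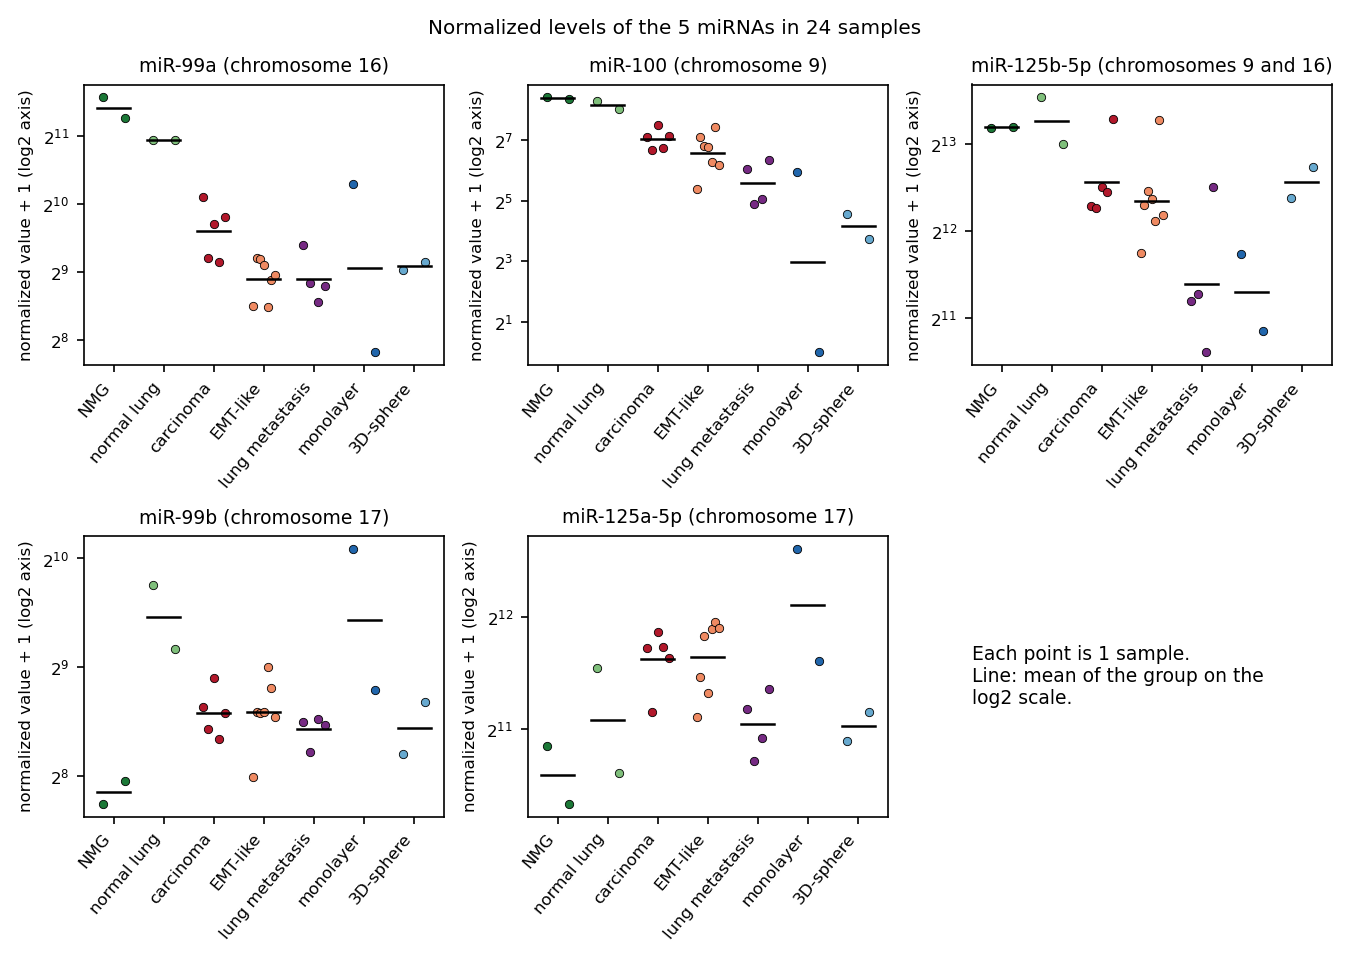
Normalized value + 1 of each miRNA (vertical axis, log2 scale) in the 7 groups; each point is 1 of 24 samples and each line the group mean on the log2 scale. miR-99a and miR-100 are highest in NMG and normal lung, whereas miR-99b and miR-125a-5p have their lowest group mean in NMG, at 213 and 247 and at 1835 and 1282.

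Primary tumors were compared with NMG to ask which miRNAs set malignant areas apart from the gland. In carcinoma areas 2 of the 5 members passed the test (limma, adjusted p under 0.05), 1 in each direction, beside 29.3% of all 583 probes tested (5.49% higher and 23.8% lower). miR-99a fell by 1.82 on the log2 scale (SE 0.43, adjusted p = 0.00261), a 3.53-fold difference, and was lower in 5 of 5 carcinoma areas. miR-125a-5p rose by 1.04 (SE 0.32, adjusted p = 0.0186), a 2.05-fold difference, and was higher in 5 of 5. The differences of the other members were 0.73 for miR-99b (adjusted p = 0.0763), -1.36 for miR-100 (adjusted p = 0.290) and -0.63 for miR-125b-5p (adjusted p = 0.299). The groups did not overlap for 4 of the 5 members, all but miR-125b-5p, against 38.8% of all probes. Over the 5 members the median difference was -0.63, near the median of -0.68 over all probes.

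EMT-like areas gave the same 2 calls against the same NMG samples, beside 24.9% of all probes (4.46% higher and 20.4% lower). miR-99a fell by 2.51 (SE 0.41, adjusted p = 6.31e-05), a 5.71-fold difference, and was lower in 7 of 7 areas. miR-125a-5p rose by 1.05 (SE 0.31, adjusted p = 0.0130), and miR-99b differed by 0.74 (adjusted p = 0.0681). The values of miR-100 and miR-125b-5p were -1.81 (adjusted p = 0.129) and -0.84 (adjusted p = 0.139). Again 4 of 5 members did not overlap, against 34.6% of all probes. The median difference was -0.84 over the 5 members and -0.30 over all probes.

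How far the calls against NMG depend on scaling differed between the loci. miR-99a was lower than NMG under every setting run, with values between -3.39 and -1.29 for carcinoma and between -3.70 and -1.66 for EMT-like areas, and its only lost call was in carcinoma without NMG replicate 1 (adjusted p = 0.0512). The miR-125a-5p call did not hold without scaling (-0.54 in carcinoma and -0.13 in EMT-like areas), with scaling by the 4 mRNA control probes (0.16 and 0.03), or without NMG replicate 2 (0.78, adjusted p = 0.226, and 0.80, adjusted p = 0.225). The uncalled members also moved. miR-99b was called higher when lanes were scaled on the 100 most abundant miRNAs (1.25 in carcinoma, adjusted p = 0.00282, and 1.59 in EMT-like areas, adjusted p = 2.22e-04) or on the miRNA total (1.18, adjusted p = 0.00146, and 1.39, adjusted p = 1.96e-04). Without scaling miR-100 (-2.92 and -2.996) and miR-125b-5p (-2.20 and -2.03) were called lower in both areas, and with the mRNA controls miR-125b-5p was lower in both (-1.51 and -1.87) and miR-100 in EMT-like areas (-2.84). The split of 1 member higher and 1 lower thus became 0 and 3 without scaling, 2 and 1 on the 100 most abundant miRNAs or the miRNA total, and 0 higher with the mRNA controls (2 lower in carcinoma, 3 in EMT-like areas). Leaving lanes unscaled moved the median of all probes by -1.15 in carcinoma against NMG, and the mRNA controls moved it by -0.58. Marker lists of other cell types were also far apart between these groups. The summed mesenchymal markers (3 of 4 on the panel, all detected in NMG) were 8645 to 9125 in NMG, 882 to 1885 in carcinoma and 1093 to 2844 in EMT-like areas, and miR-126 of both strands summed to 10971 to 17649 in NMG and 1067 to 2626 in PT. The smooth muscle pair, miR-143 and miR-145, summed to 6039 to 7591 in NMG and 765 to 1689 in PT, the 4 leukocyte miRNAs to 2500 to 5613 and 230 to 812, and the 3 red cell miRNAs to 8118 to 8509 and 83.7 to 297. The smooth muscle pair also summed to 404 to 1371 in the monolayers, so its signal is not limited to other cell types. The part of these lists in the differences was not tested. In captured tissue fewer cells of a type and less RNA per cell cannot be told apart.

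A ratio of 2 members within a lane is free of the scaling between lanes, and it asks directly whether chromosome 17 and the other loci moved apart. The log2 ratio of miR-99b over miR-99a was -3.83 and -3.31 in NMG, and in carcinoma areas it was -1.46, -0.77, -0.81, -0.80 and -1.24. In the EMT-like areas it ran from -0.62 to 0.52 with a median of -0.50. Carcinoma exceeded NMG by 2.55, a 5.85-fold difference, and EMT-like areas exceeded it by 3.25, a 9.52-fold difference. All 12 primary areas were above both NMG samples, which is the most extreme split these group sizes allow: the exact two-sided permutation p was 0.0476 in carcinoma (adjusted p = 0.0952 over 10 ratio tests) and 0.0278 in EMT-like areas (adjusted p = 0.0926). Neither passed after adjustment.

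The miR-125 pair showed a smaller separation in the same direction. The log2 ratio of miR-125a-5p over miR-125b-5p was -2.34 and -2.88 in NMG, -0.56, -1.12, -0.64, -0.73 and -1.66 in carcinoma areas, and -1.32 to -0.22 (median -0.64) in EMT-like areas. The differences were 1.67 for carcinoma (3.18-fold) and 1.90 for EMT-like areas (3.72-fold), with exact permutation p of 0.0476 (adjusted p = 0.0952) and 0.0278 (adjusted p = 0.0926), again without overlap. Leaving out each sample in turn kept the differences between 1.40 and 1.93 in carcinoma and between 1.63 and 2.16 in EMT-like areas.

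The let-7 members of the clusters, which carry another seed, were read as partners of the same loci. let-7e, from chromosome 17, rose against NMG by 1.33 in carcinoma (adjusted p = 2.68e-04) and by 1.26 in EMT-like areas (adjusted p = 2.90e-04), with no overlap. Its direction turned without scaling in carcinoma (-0.25), and both calls were lost without scaling and with the mRNA controls (0.45 and 0.23). let-7c, from chromosome 16 and a further locus on chromosome 15, had differences of 0.22 (adjusted p = 0.630) and 0.19 (adjusted p = 0.689), and let-7a of -0.08 (adjusted p = 0.955) and -0.19 (adjusted p = 0.694). Within lanes let-7e over let-7c was higher than in NMG by 1.11 in carcinoma and by 1.08 in EMT-like areas, without overlap and given without a test. All 3 chromosome 17 miRNAs thus had higher ratios to a relative from another locus in primary tumors than in NMG.

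**Figure D2:**
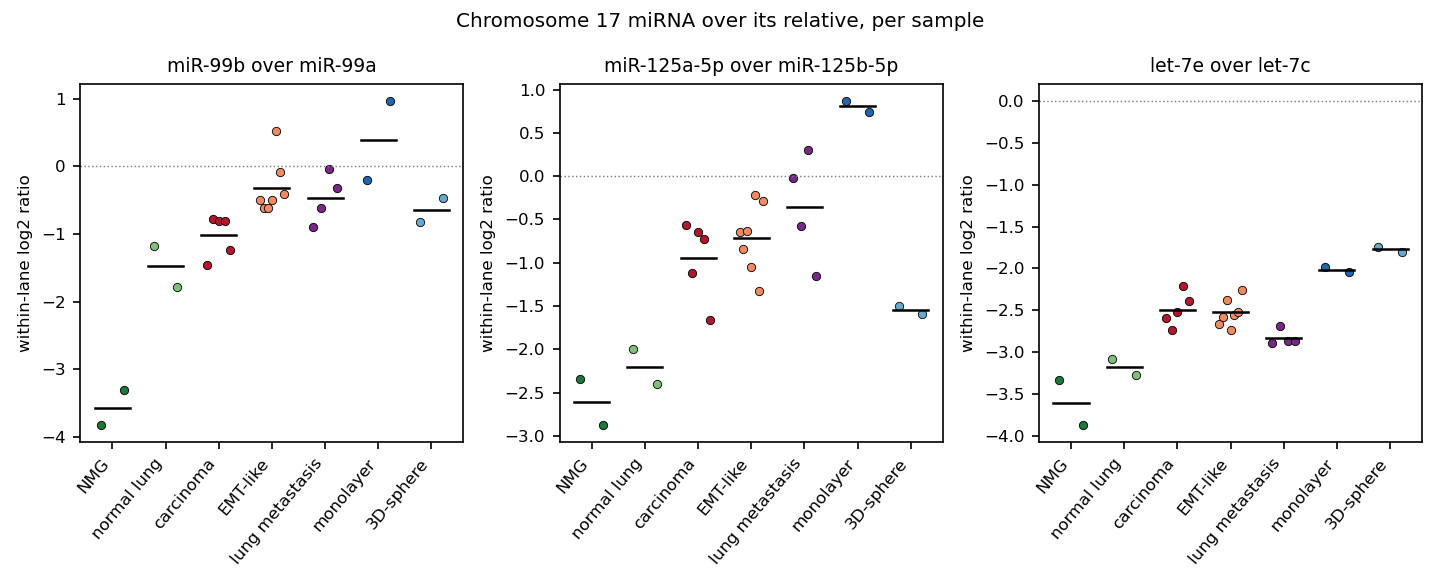
Within-lane log2 ratio of each chromosome 17 miRNA over a relative encoded elsewhere (vertical axis) in the 7 groups; points are samples, lines are group means, and the dotted line marks equal values. NMG has the lowest mean in all 3 panels, with -3.83 and -3.31 for miR-99b over miR-99a, and the spheres fall below the monolayers for miR-125a-5p over miR-125b-5p.

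Normal lung differed from NMG in 1 of the 5 members, beside 11.7% of all probes (10.5% higher and 1.2% lower). miR-99b rose by 1.61 (SE 0.36, adjusted p = 0.00352), a 3.06-fold difference, with both lung samples above both NMG samples. For miR-125a-5p from the same 0.7 kb the difference was 0.49 (adjusted p = 0.506), and the other 3 members lay between -0.48 and 0.08. The groups did not overlap for 3 members, against 49.9% of all probes. The miR-99b call was lost when lanes were scaled on the 100 most abundant miRNAs (0.95, adjusted p = 0.101), on the miRNA total (0.74, adjusted p = 0.132) and in a fit of these 4 samples alone (1.61, adjusted p = 0.0590). On the miRNA total miR-99a was called lower instead (-1.35, adjusted p = 0.0494), and with the mRNA controls miR-125a-5p was called higher beside miR-99b (1.74, adjusted p = 0.0334). The within-lane ratio of miR-99b over miR-99a was -1.18 and -1.78 in normal lung, 2.09 above NMG on average without overlap. No test was run on it, as an exact permutation of 2 samples against 2 cannot reach 0.05. miR-125a-5p over miR-125b-5p was -1.99 and -2.40 in normal lung and overlapped NMG.

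Lung metastases were set against normal lung to separate tumor from host organ. Here 4 of 5 members were lower, beside 49.2% of all probes called, 42.2% lower and 7.03% higher, so a fall was common across the panel. These 4 members did not overlap between the groups, as 48.5% of all probes. The difference was -2.58 for miR-100 (SE 0.92, adjusted p = 0.0241), -2.04 for miR-99a (SE 0.44, adjusted p = 7.12e-04), -1.87 for miR-125b-5p (SE 0.44, adjusted p = 0.00146) and -1.03 for miR-99b (SE 0.31, adjusted p = 0.00943). miR-125a-5p differed by -0.03 (95% interval -0.73 to 0.66). The size of these falls rests on the scaling: with the 100 most abundant miRNAs or the miRNA total as the scale none of the 4 was called, and miR-125a-5p was called higher by 1.26 or 1.44, whereas without scaling or with the mRNA controls all 5 were called lower. Without normal lung replicate 1, miR-99b (-0.74, adjusted p = 0.121) and miR-100 (-2.45, adjusted p = 0.140) were no longer called, and miR-100 was also lost without normal lung replicate 2 (-2.71, adjusted p = 0.149), metastasis replicate 2 (adjusted p = 0.0520) or metastasis replicate 3 (adjusted p = 0.0504). Endothelial miR-126 summed to 67772 to 70140 in normal lung and 819 to 3114 in metastases, and the 3 red cell miRNAs to 49121 to 55994 and 348 to 533. The mesenchymal markers summed to 4459 to 4617 in normal lung and 230 to 995 in metastases, the smooth muscle pair to 9932 to 13953 and 688 to 1086, and the leukocyte miRNAs to 4668 to 6114 and 408 to 887. Their part in the differences was not tested.

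Both within-lane ratios also set metastases apart from normal lung, a gap that a ratio cannot assign to 1 of its members. The log2 ratio of miR-125a-5p over miR-125b-5p was -0.02, -0.58, 0.30 and -1.15 in the metastases, all above both normal lung samples, by 1.84 on average or 3.58-fold. For miR-99b over miR-99a the metastases had -0.90, -0.61, -0.04 and -0.32, all above normal lung, by 1.01 or 2.02-fold. No test was run on these ratios, as an exact permutation of 4 samples against 2 cannot reach 0.05.

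Metastases were compared with PT to find what accompanied spread to the lung. No member was called, beside 3.09% of all probes (2.57% lower), and 2 of 5 members and 90 of the 583 probes had an unadjusted p under 0.05. miR-125b-5p came closest, at -1.04 (SE 0.29, adjusted p = 0.0528), a 2.06-fold difference, with 3 of 4 metastases below all 12 primary areas and the fourth, replicate 4, among them. It was called lower in 9 of the other settings, among them without metastasis replicate 4 (-1.41, adjusted p = 0.00348) and without EMT-like replicate 1 (-1.10, adjusted p = 0.0302), and its adjusted p ranged from 0.00348 to 0.216 over all settings. By animal, miR-125b-5p was lower in the metastasis than the mean of the primary areas in 3 of 4, with differences from -2.67 to 0.32. miR-125a-5p differed by -0.59 (adjusted p = 0.150). Against the mean of its animal's primary areas, the metastasis was lower in 4 of 4 animals, by 0.24 to 1.04. Under the label that names 3 animals, the metastasis (2310) lay above the EMT-like area (2200) and below the carcinoma area (3385). miR-100 differed by -1.18 (adjusted p = 0.378), miR-99a by -0.29 (adjusted p = 0.767) and miR-99b by -0.15 (adjusted p = 0.917). Each of these was lower in the metastasis in 3 of 4 animals. With the higher background, 3 members were called lower, miR-100 (-2.27), miR-125a-5p (-0.60) and miR-125b-5p (-1.05). The summed mesenchymal markers were 230 to 995 in metastases and 882 to 2844 in PT, and the red cell miRNAs 348 to 533 and 83.7 to 297. The epithelial miRNAs summed to 2509 to 4671 in metastases, 930 to 5385 in carcinoma and 59.4 to 1758 in EMT-like areas. The part of these markers was not tested. Neither ratio passed. miR-99b over miR-99a differed by 0.14 (exact permutation p = 0.618). Its mean was -0.47 in metastases, -1.02 in carcinoma and -0.32 in EMT-like areas. The metastasis exceeded the mean of its animal's primary areas in 4 of 4 animals, by 0.040 to 0.26. The exact sign-flip p was 0.125, the smallest possible. Where an animal with a metastasis gave both areas, the metastasis (-0.90 and -0.61) lay below the EMT-like area (-0.50 in each). It lay above the carcinoma area (-1.46 and -1.24). The other animals with a metastasis gave only an EMT-like area. miR-125a-5p over miR-125b-5p differed by 0.45 (exact permutation p = 0.123, adjusted p = 0.204). This ratio was higher in the metastasis in 3 of 4 animals, with differences from -0.86 to 1.63.

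Carcinoma and EMT-like areas of the same tumors were compared to follow the epithelial and spindle-shaped states. None of the 5 members was called, beside 0.172% of all probes, and 1 member and 81 probes had an unadjusted p under 0.05. That member was miR-99a, higher in carcinoma by 0.69 (95% interval 0.08 to 1.31, limma adjusted p = 0.299). miR-99b and miR-125a-5p differed by -0.01 (95% interval -0.45 to 0.43) and -0.02 (95% interval -0.48 to 0.45), miR-125b-5p by 0.21 and miR-100 by 0.46. All 5 overlapped, and 1.03% of all probes did not.

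Within lanes, however, the miR-99 pair did separate the areas. The ratio of miR-99b over miR-99a was lower in all 5 carcinoma areas than in all 7 EMT-like areas, by 0.70 on the log2 scale or 1.63-fold (exact two-sided permutation p = 0.00253 over 792 splits, adjusted p = 0.0253), the only one of 10 ratio tests to pass after adjustment. Of its parts, the group means of miR-99a differed by 0.69 and those of miR-99b by -0.01. In the 4 animals that gave both areas the ratio was lower in carcinoma each time, by 0.15 to 0.96. The exact two-sided sign-flip p was 0.125, the smallest that 4 animals allow. In these animals miR-99a was higher in carcinoma in 3 of 4 (-0.056 to 1.61) and miR-99b lower in 3 of 4 (-0.25 to 0.65). EMT-like replicates 5, 6 and 7, from animals without a carcinoma area, had the highest ratios of their group (0.52, -0.08 and -0.41). Within the lettered series of animal labels the difference was -0.46 (exact permutation p = 0.30) and within the numbered series -0.80 (exact permutation p = 0.0952), without overlap in either. It did not pass after adjustment without carcinoma replicate 1 (-0.59, adjusted p = 0.0926) or replicate 5 (-0.65, adjusted p = 0.0909), which had the lowest ratios. The miR-125 pair differed by -0.23 (exact permutation p = 0.362) with overlap. The 7 epithelial miRNAs summed to 930 to 5385 in carcinoma and 59.4 to 1758 in EMT-like areas, and their part was not tested.

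**Figure D3:**
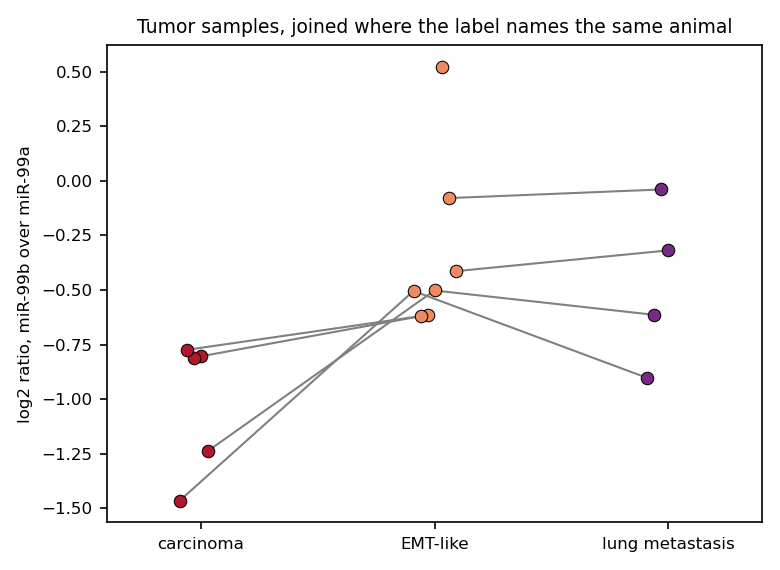
Log2 ratio of miR-99b over miR-99a (vertical axis) in carcinoma areas (n = 5), EMT-like areas (n = 7) and lung metastases (n = 4); each point is a sample and lines join samples whose labels name the same animal. The lines rise from carcinoma to EMT-like areas in 4 of 4 animals, and no carcinoma area reaches the lowest EMT-like area.

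Cultures were compared with PT, as the same tagged line in plates and in the mouse. One member, miR-100, was called lower, beside 30.4% of all probes called, 22% lower and 8.40% higher. It fell by 3.20 (SE 0.61, adjusted p = 2.59e-04), with 3 of 4 cultures under the detection limit, so the size of the fold depends on values near background. The call was lost when lanes were scaled on the 100 most abundant miRNAs (-1.73, adjusted p = 0.0670) and kept when any 1 sample was left out (-3.99 to -2.01). Within lanes the log2 ratio of miR-100 over miR-99a was -4.35 in monolayer replicate 1, the culture with miR-100 above the limit, and -3.09 to -1.45 in PT. No ratio is given for the other 3 cultures, where miR-100 had no measured level. The other 4 members differed by -0.51 (miR-125b-5p) to 0.36 (miR-99b), and their direction turned with the scale. Without scaling miR-99a, miR-125a-5p and miR-125b-5p were called lower, and miR-99b was not called (-0.59). With the miRNA total miR-99a, miR-99b and miR-125a-5p were called higher, and with the 100 most abundant miRNAs all 4 were. Endothelial, mesenchymal and red cell markers were all under the limit in the cultures. The smooth muscle pair was partly above it and summed to 404 to 1371 in monolayers, 427 to 493 in spheres and 765 to 1689 in PT. Some leukocyte and striated muscle miRNAs were above it too. The part of these markers was not tested.

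Of the let-7 partners in cultures, let-7a (-1.05, adjusted p = 1.08e-04) and let-7c (-0.81, adjusted p = 0.00111) were called lower than in PT, and let-7e was not (-0.19, adjusted p = 0.478). All 3 depended on the scaling. With the 100 most abundant miRNAs let-7a (1.07), let-7c (1.31) and let-7e (1.93) were called higher, with the miRNA total only let-7e was (0.87), beside 0.020 for let-7a and 0.26 for let-7c, and without scaling let-7e was called lower too (-1.15). Within lanes let-7e over let-7c was 0.62 higher in cultures than in PT without overlap. The ratios of miR-99b over miR-99a and of miR-125a-5p over miR-125b-5p were 0.48 higher (exact permutation p = 0.161) and 0.44 higher (exact permutation p = 0.308) in cultures, with overlap.

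Spheres and monolayers were compared for what changes with growth in suspension. No member was called, beside 4.63% of all probes (2.92% higher and 1.72% lower), though 3 of 5 members and 84 of 583 probes had an unadjusted p under 0.05 and those 3 did not overlap, as in 23.2% of all probes. miR-125a-5p was -1.09 (adjusted p = 0.133) and miR-99b -0.999 (adjusted p = 0.143) in spheres, and miR-125b-5p was 1.26 (adjusted p = 0.199). Within lanes miR-125a-5p over miR-125b-5p was 0.87 and 0.75 in monolayers and -1.49 and -1.59 in spheres, a 5.10-fold difference. miR-99b over miR-99a was -0.20 and 0.97 in monolayers and -0.83 and -0.47 in spheres. No test was run on either ratio, as an exact permutation of 2 samples against 2 cannot reach 0.05. The monolayers were unlike each other, and without monolayer replicate 2 miR-99b (-1.65) and miR-125a-5p (-1.59) were called lower, while without monolayer replicate 1 neither was and miR-100 was called higher (4.15), with all 3 remaining lanes under the detection limit. miR-99b and miR-125a-5p were also called lower when lanes were scaled on the 100 most abundant miRNAs or the miRNA total.

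**Figure D4:**
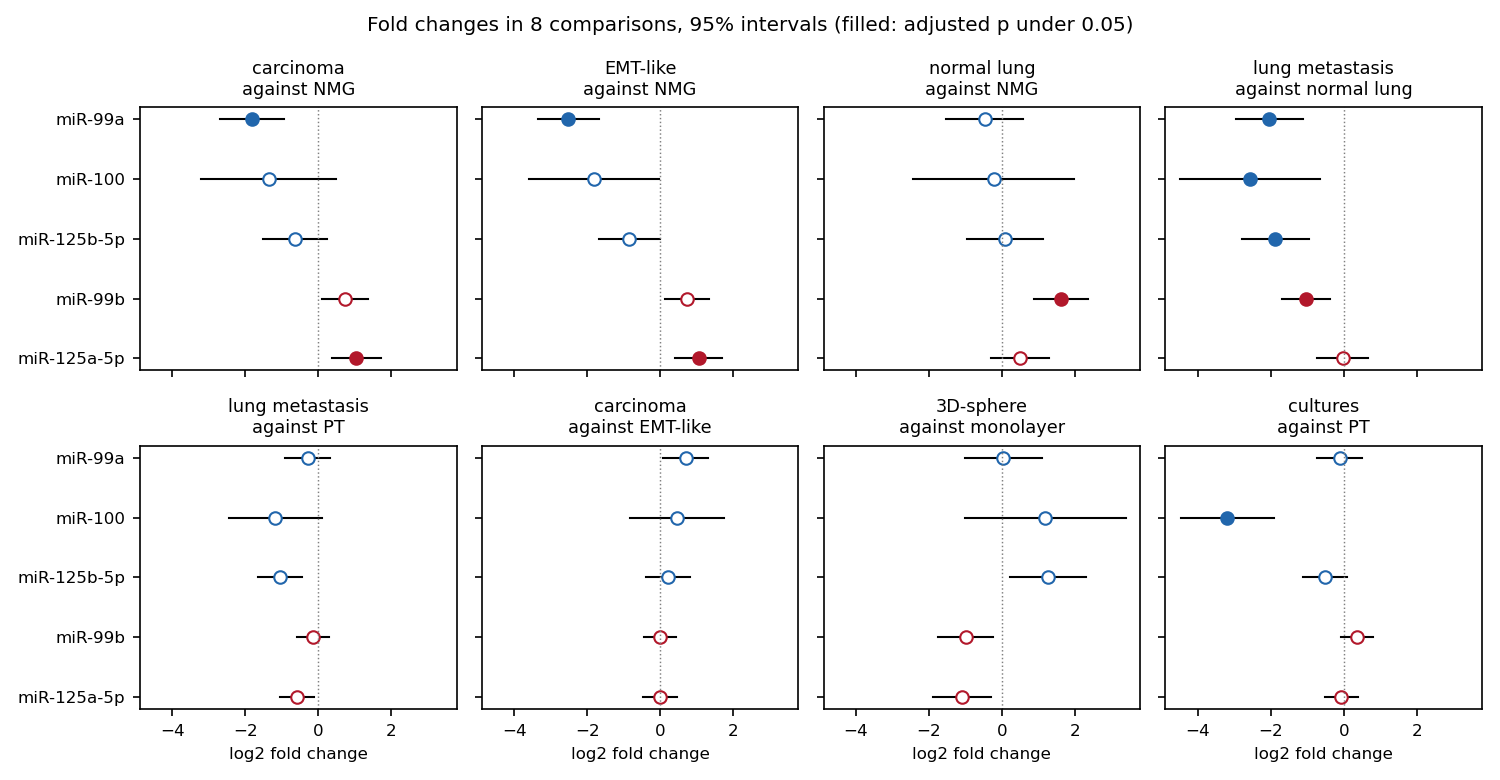
Log2 fold change of each miRNA (horizontal axis; points) with its 95% interval (bars) in 8 comparisons; red marks the chromosome 17 miRNAs, blue the others, and filled points have an adjusted p under 0.05 (limma, 583 probes). Against NMG the red points lie right of 0 and the blue points left of it in carcinoma (miR-125a-5p 1.04, miR-99a -1.82) and EMT-like areas.

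Across the 24 samples the levels of miR-99b and miR-125a-5p followed each other and let-7e of their cluster more closely than the relatives that share their seeds. These correlations are descriptions over samples that share animals, tissue types and scaling. Among 196 mouse miRNAs detected in at least 12 samples, the one most like miR-125a-5p was let-7e (Pearson r = 0.80), followed by miR-149 (0.73) and miR-221 (0.63), and miR-99b ranked 4 with 0.61. For miR-99b, miR-15b came first (0.65), miR-125a-5p ranked 2 of 195 (0.61), and let-7e ranked 6 (0.40). Between relatives of the same seed r was -0.02 for miR-125a-5p with miR-125b-5p and 0.12 for miR-99b with miR-99a.

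Of the members from the other clusters, miR-99a was most like miR-378 (0.87), miR-145 (0.84) and miR-365 (0.83), and let-7c, encoded less than 1 kb away, ranked 112 of 195 (0.18). miR-100 was most like let-7f (0.91), miR-29b (0.90) and miR-130a (0.88), with let-7a of its cluster at rank 26 (0.80). miR-125b-5p was most like miR-29a (0.81), miR-23a (0.78) and miR-22 (0.75), and miR-100 and miR-99a, the family members of its clusters, ranked 5 (0.69) and 13 (0.63).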

How the data were processed

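Mouse miRNAs were measured with the NanoString nCounter assay, which counts a barcode for each captured molecule without amplification. The deposited values are whole barcode counts from which the authors removed each lane's own background, the average of its 6 negative controls, as the values themselves show, so the lowest is -20, and no scaling between lanes was applied. These values were set to at least 0 and scaled by TMM over 599 miRNA probes (trims of 30% and 5%). Log2(value + 1) was fitted for 7 groups of 24 samples with limma 3.58.1 (R 4.3.3, trend), with Benjamini-Hochberg adjustment over the 583 probes tested and calls at an adjusted p under 0.05. Ratios were compared by exact two-sided permutation over samples (Python 3.11.15, scipy 1.17.1). Fits were tested on simulated data.

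The members and the lists were chosen with earlier results of these data known. The rule named all 5 members, and the 3 probes most like each. Probe names without an arm were matched to the 5p strand. The pairing of tissue samples comes from the animal names in the labels, and cultures share only a number. Deviations from the group means correlated with a median r of 0.076 over 12 animal pairs (-0.31 to 0.30). The p-values measure the spread between captured areas, several of which share an animal, and between cultures not stated to be independent.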

Additional observations from a re-analysis of the deposited data

Results flagged for a closer look

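Of 21 sets of values in the 3 groups of 4 to 10 samples, 15 of members and 6 of their ratios, 1 held a sample far from the others, and chance alone gives about 1 in 20. This was miR-125b-5p in carcinoma replicate 5, whose gap to the next sample was 0.761 of the range of the group, above the critical value of 0.71. Its normalized value was 10055, against 4924 to 5840 in the other 4 carcinoma areas. Samples of the same animal had 5276 (EMT-like replicate 4) and 2492 (metastasis replicate 2), so the high value was not shared by them.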

How the results depend on the processing

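The scaling between lanes mattered most. Without scaling, the direction turned for miR-125b-5p in carcinoma against EMT-like areas (-0.18), for miR-99b (-0.84) and miR-125a-5p (-0.54) in carcinoma and for both in EMT-like areas (-0.44 and -0.13) against NMG, for miR-100 in normal lung against NMG (0.011), for miR-99a in spheres (-0.19) and for miR-99b in cultures (-0.59). With the 100 most abundant miRNAs it turned for miR-125b-5p in carcinoma against EMT-like areas (-0.12), in EMT-like areas against NMG (0.014) and in normal lung against NMG (-0.59), for miR-125a-5p in the last (-0.18), for miR-99b (0.26) and miR-125a-5p (1.26) in metastases against normal lung, for miR-99a in spheres (-0.32), and in cultures for miR-99a (1.999), miR-125a-5p (2.05) and miR-125b-5p (1.61). With the miRNA total it turned for miR-99b (0.44) and miR-125a-5p (1.44) in metastases against normal lung, for miR-125a-5p (-0.39) and miR-125b-5p (-0.80) in normal lung against NMG, for miR-99a in spheres (-0.22), and in cultures for miR-99a (0.95), miR-125a-5p (1.001) and miR-125b-5p (0.56). With the mRNA controls it turned for miR-99b (0.14) and miR-125a-5p (0.13) in carcinoma against EMT-like areas, for miR-99b against NMG in carcinoma (-0.15) and EMT-like areas (-0.29), for miR-99a (0.77) and miR-100 (1.02) in normal lung against NMG, and for miR-99b in cultures (-0.080). A term for the series of animal labels turned miR-99b (0.018) and miR-125a-5p (0.048) in carcinoma against EMT-like areas, the higher background turned miR-100 in spheres (-1.59), and within the lettered labels the ratio of miR-99b over miR-99a turned in metastases against PT (-0.068). The cause was not tested.

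The number of members called moved as follows. In metastases against PT, 0 became 2 without scaling, 3 with the higher background, and 1 with the 100 most abundant miRNAs, the miRNA total, the filter at 20, the pseudocount of 10 or the series term. Against NMG it was 4 in carcinoma and 4 in EMT-like areas (2 higher and 2 lower in each) when only the groups compared were fitted. In metastases against normal lung it was 1 with the 100 most abundant miRNAs or the miRNA total. In normal lung against NMG it was 0 with the 100 most abundant miRNAs or with only the groups compared, and 2 with the mRNA controls. In spheres it was 2 with the 100 most abundant miRNAs or the miRNA total, and in cultures 4 without scaling or with either of these. The ratio of miR-99b over miR-99a in carcinoma against EMT-like areas was -0.46 within the lettered and -0.80 within the numbered labels.

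Leaving out each sample in turn gave 0 to 1 members called in metastases against PT, 1 to 2 in carcinoma and 1 to 3 in EMT-like areas against NMG, 2 to 4 in metastases against normal lung and 0 to 2 in spheres. Values that changed sign ranged from -0.11 to 0.060 for miR-99b and from -0.11 to 0.10 for miR-125a-5p in carcinoma against EMT-like areas, from -0.51 to 0.44 for miR-125a-5p in metastases against normal lung, and from -0.19 to 0.35 for miR-125b-5p in normal lung against NMG. In spheres miR-99a ranged from -1.20 to 1.27 and miR-100 from -1.79 to 4.15, and in cultures miR-99a ranged from -0.52 to 0.30, miR-99b from -0.026 to 0.60 and miR-125a-5p from -0.42 to 0.16. The ratio of miR-99b over miR-99a ranged from -0.76 to -0.56 in carcinoma against EMT-like areas and from -0.0028 to 0.28 in metastases against PT.

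With the animal or culture as a replicate block (consensus correlation -0.0051), the members called numbered 0, 0, 2, 2, 4, 1, 0 and 1 in carcinoma against EMT-like areas, metastases against PT, carcinoma and EMT-like areas against NMG, metastases against normal lung, normal lung against NMG, spheres and cultures, as without the block. The cultures share only a number, with a correlation of 0.057, and with animals alone as the block (-0.0030) the numbers called were the same. Pairing by animal, the ratio of miR-99b over miR-99a in carcinoma against EMT-like areas was -0.51. Without the samples whose label names 3 animals, an alternative chosen after seeing the data like the label series, the block of animals alone and the pairing of ratios, no count of members called moved by over 1.5 times. Groups of 2 samples limit every comparison with normal tissue or between cultures, and miR-100 lies near background in cultures and metastases.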

Other observations

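Of the opposite strands of the miR-125 hairpins, miR-125a-3p had mean normalized values of 53.4 in NMG, 44.9 in normal lung, 27.6 in carcinoma, 33.1 in EMT-like areas, 24.6 in metastases, 50.6 in monolayers and 33.2 in spheres, and it was called in none of the 8 comparisons (limma). miR-125b-3p was above the detection limit in both NMG and both normal lung samples, in 2 of 5 carcinoma and 7 of 7 EMT-like areas, and in none of the 4 metastases or 4 cultures. It was called lower in cultures than in PT (-1.76, adjusted p = 0.0486), among values close to background.

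miR-351, encoded on the X chromosome, carries the miR-125 seed and shares its first 8 bases with miR-125a-5p. It was above the detection limit only in NMG (13 and 34 counts before scaling) and normal lung (47 and 163), and in none of the other 20 samples. The normalized values were 5.36 and 12.6 in NMG and 29.1 and 28.9 in normal lung. It was called lower in carcinoma (adjusted p = 4.39e-04) and EMT-like areas (adjusted p = 0.0245) than in NMG, and in metastases than in normal lung (adjusted p = 8.64e-07). No fold is given, as the tumor samples were all under the limit.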
